A study of Vitis vinifera with 16 samples.

Results

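The genes described here move nitrogen, amino acids and water across plant cell membranes. They were found by searching the gene descriptions of the deposited table for 9 terms, among them NRT1/PTR FAMILY, nitrate transporter, ammonium transporter, amino acid permease, oligopeptide transporter, WAT1-related and aquaporin. The search found 138 of 13411 genes: 44 of the NRT1/PTR family (NPF), 26 WAT1-related genes, 18 aquaporins, 18 amino acid transporters other than permeases, 14 amino acid permeases, 8 oligopeptide transporters, 7 ammonium transporters and 3 other nitrate transporters. The choice used descriptions only, and no level.

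RNA came from ovules of 2 grape (Vitis vinifera) varieties, Zhongpu No. 18 (ZP) and Muscat Hamburg (MH), taken at day 35, day 45, day 55 and day 61 from flowering, with 2 libraries for each variety and day and 16 in all. The study concerns lignin in grape ovules of seeded and stenospermocarpic kinds, the second being those in which fertilised seeds stop growing early. Muscat Hamburg is known as a seeded table grape, and the labels do not say which variety is seedless. The ovules were stored frozen with the skin left on, so a library may mix several tissues, and whether the paired libraries represent different vines is not stated in the labels.

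The embryo of a developing seed has no vascular link to the mother plant, so water, amino acids and mineral nitrogen unloaded in the seed coat must cross membranes to reach the filial tissues. Aquaporins are channels for water and small solutes in the plasma membrane (PIP), the vacuolar membrane (TIP) and other membranes (NIP). NPF proteins carry nitrate, peptides and, for several members studied in Arabidopsis, hormones. Amino acid permeases are proton-coupled importers, ammonium transporters bring ammonium into cells, and WAT1 of Arabidopsis exports auxin from the vacuole.

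Levels are given in FPKM, fragments scaled by transcript length and library size, as the authors deposited them. Differences are of log2(FPKM + 1) ± standard error from limma, a scale that compresses changes at low levels, and a gene is called when its Benjamini-Hochberg adjusted p over all 12637 tested genes is under 0.05. The estimated depth was 2e+07 to 3e+07 fragments per library, so that 1 fragment in 1 kb was worth 0.033 to 0.05 FPKM. The first principal component (64.1% of the variance) parted the varieties and the second (17.4%) followed the days. The 25 markers of embryo and endosperm filling, mostly storage proteins, summed to 66.1 to 3879 FPKM in ZP libraries and 62260 to 243418 FPKM in MH libraries, where they made up 16.8% to 46.1% of all FPKM. None of the 25 was at 0 in all libraries of a variety, 5 were listed at 0 in some ZP libraries and 3 in some MH libraries. The 41 green tissue markers summed to 1804 to 6621 FPKM in ZP and 110 to 2167 FPKM in MH. The 15 vascular markers summed to 35.6 to 49.3 FPKM in ZP and 10.3 to 16.2 FPKM in MH. Of 12 tested, 9 were called higher in ZP, where 61.6% of all tested genes were, and 0 lower, where 27% were. The 8 seed coat and ovule markers summed to 631 to 975 FPKM in ZP and 590 to 1037 FPKM in MH. The 56 berry flesh and skin markers summed to 1772 to 6030 FPKM in ZP and 3253 to 5103 FPKM in MH, and the 69 heat shock genes to 3103 to 13343 FPKM in ZP and 5087 to 7805 FPKM in MH. The part of these tissues in the transporter differences was not tested. In bulk RNA, fewer cells of a type and less RNA per cell cannot be told apart.

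The transporters as a whole stood higher in ZP ovules. Summed over the 138 genes they reached 8025 to 11601 FPKM in ZP libraries and 2611 to 4515 FPKM in MH libraries, which is 2.32% to 3.29% of all FPKM in ZP and 0.572% to 1.14% in MH. The 2 ranges did not overlap. Of the 131 genes that passed the filter on low values, 92 were called higher in ZP averaged over the days, where 61.6% of all tested genes were (the members' share was 70.2%), and 29 were called lower, where 27% were (members 22.1%). Their median difference was 1.07, against 0.58 over all tested genes. In 59 of them all 8 ZP libraries lay above all 8 MH libraries (background 30.3%), and in 19 all lay below (background 8.59%). The 7 genes that were not tested were low in both varieties, with no library above 1.33 FPKM.

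Much of the general shift toward ZP depends on scaling. With libraries scaled by the median ratio of their genes, the median difference of all tested genes was 0.07, the members' median was 0.70, and 78 members were called higher and 43 lower. Over all genes 5860 were then called higher and 5370 lower. With quantile normalization the median of all genes was 0.06, that of the members 0.57, and the split was 76 higher and 47 lower. Over all genes it was 5898 higher and 5490 lower. Later splits averaged over the days on these scales are to be read against these counts. Differences near 0.58 on the deposited scale are therefore near the centre of all genes, and the 15 members whose average difference changed sign under some scaling all had differences between 0.05 and 0.60 on that scale.

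**Figure D1:**
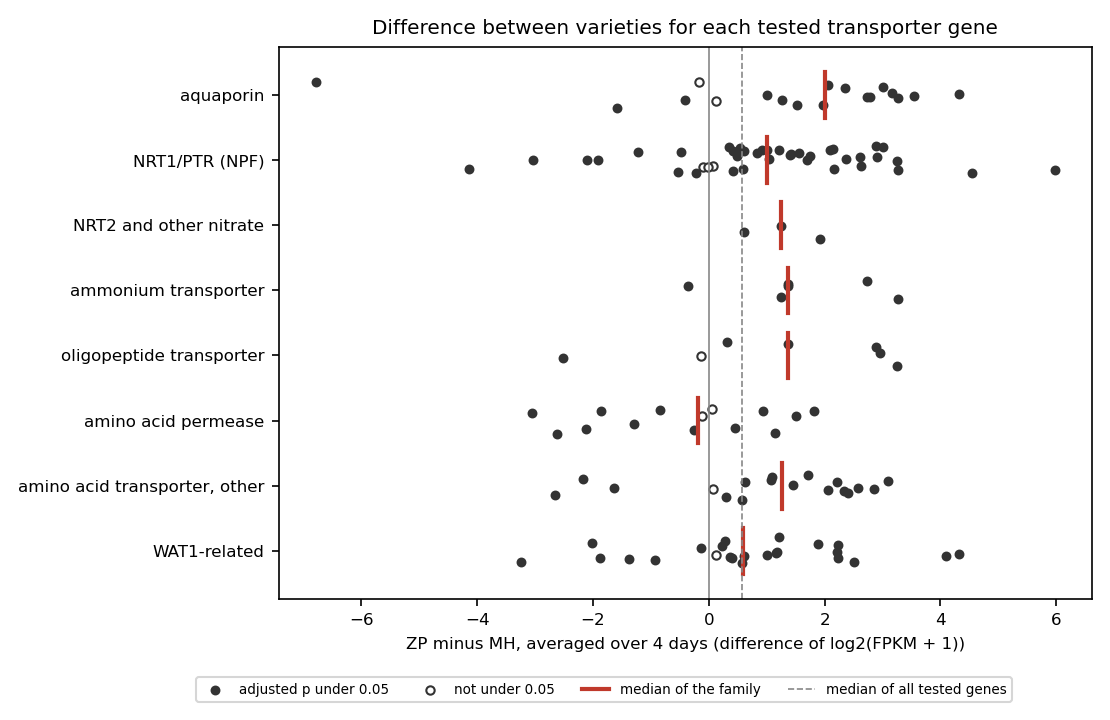
Difference between varieties, ZP minus MH averaged over the 4 days on the log2(FPKM + 1) scale, for each of the 131 tested genes (points, spread vertically to separate them) by family; filled points have an adjusted p under 0.05, red bars are family medians and the dashed line is the median of all tested genes (0.58). The aquaporin median lies at 2.01 and the amino acid permease median at -0.19.

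On each day the share of members called higher in ZP was above that of all genes. At day 35, 77 members were called higher in ZP (background 45.8%) and 33 lower (31.1%). At day 45 the counts were 91 higher (59.8%) and 28 lower (19.1%). At day 55 they were 89 higher (56.9%) and 26 lower (21.3%), and at day 61 they were 82 higher (55.5%) and 31 lower (19.2%). As a share of the 131 tested members, the calls lower in ZP were below background at days 35 and 55 and above it at days 45 and 61. The members' median difference was 0.67, 1.03, 1.15 and 0.92 on days 35, 45, 55 and 61, each above the median of all genes, which was 0.24, 0.68, 0.64 and 0.56 on the same days.

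Aquaporins made up most of the transporter RNA. Their 18 genes summed to 5419 to 9795 FPKM in ZP libraries and 1706 to 3756 FPKM in MH libraries. Averaged over the days, 13 of them were called higher in ZP (background 61.6%) and 3 lower (27%), with a median difference of 2.01. Median-ratio scaling kept the count of 13 higher and gave 5 lower. In MH the sum was higher in replicate 1 than in replicate 2 on each of the 4 days, with 2251 and 1706 FPKM at day 61 and 3756 and 2994 FPKM at day 35.

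The plasma membrane aquaporin PIP1;3 (PIP1_3B3 in the table, chromosome 2: 2708568 to 2711635) was the most abundant transporter. Its level in ZP was 3064 and 3043 FPKM at day 35, 3144 and 3201 at day 45, 2325 and 3360 at day 55, and 2404 and 2681 at day 61, against 1119 and 951, 659 and 468, 547 and 355, and 463 and 338 FPKM in MH on the same days. All ZP libraries stood above all MH libraries, and the MH libraries were highest at day 35. The average difference was 2.35 ± 0.12 (adjusted p = 3.55e-10). Between day 61 and day 35 the level differed by -0.27 ± 0.25 in ZP (adjusted p = 0.363, not called) and fell by 1.38 ± 0.25 in MH (adjusted p = 0.000245), a fall that missed the threshold under median-ratio scaling (-0.70, adjusted p = 0.0662).

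PIP2;2 (PIP2_3B2, chromosome 3: 1752664 to 1753830), of the PIP2 group that forms efficient water channels, fell in both varieties and further in MH. Its ZP libraries held 2338 and 2274 FPKM at day 35, 1627 and 1679 at day 45, 1400 and 1951 at day 55 and 1039 and 1143 at day 61. The MH libraries held 925 and 786, 283 and 214, 162 and 117, and 58.9 and 51.5 FPKM on these days. The varieties did not overlap, and the ratio between them was largest on the last day. From day 35 to day 61 the level fell by 1.08 ± 0.20 in ZP (adjusted p = 0.000308) and by 3.93 ± 0.20 in MH (adjusted p = 1.7e-09). These changes differed by 2.85 ± 0.28 (adjusted p = 1.4e-06).

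The gene with the symbol PIP2 (chromosome 6: 3627299 to 3628489) had the largest difference in favour of ZP among aquaporins. ZP libraries ranged from 149 to 517 FPKM with a median of 314, and MH libraries from 6.94 to 45.5 FPKM with a median of 11.7, an average difference of 4.32 ± 0.09 (adjusted p = 3.06e-14). PIP1;1 (PIP1_3B1, chromosome 13: 171960 to 173284) had 320 and 319 FPKM at day 35, 896 and 989 at day 45, 461 and 964 at day 55 and 674 and 757 at day 61 in ZP, against 143 and 106, 73.9 and 37.5, 81.6 and 36.5, and 74.5 and 48 FPKM in MH. ZP was highest at day 45, and its libraries of day 55 differed from each other. Between day 61 and day 35 the change was 1.16 ± 0.41 in ZP (adjusted p = 0.0225) and -1.03 ± 0.41 in MH (adjusted p = 0.038), and the fall in MH was not called under median-ratio scaling (-0.36, adjusted p = 0.531). PIP2;1 (PIP2_3B1) was also higher in ZP (1.27 ± 0.10), whereas PIP2;3 (PIP2_3B3) was not called on average (0.13 ± 0.10, with -0.59 under median-ratio scaling). With a replicate term in each variety PIP2;3 was called (adjusted p = 0.028), in a fit whose error leaves out variation shared by same-numbered libraries.

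PIP1;2 (PIP1_3B2, chromosome 15: 22437618 to 22445292) was the 1 plasma membrane aquaporin called lower in ZP. Its levels were 50.7 to 104 FPKM in ZP and 124 to 500 FPKM in MH, with no overlap, and the average difference was -1.59 ± 0.08 (adjusted p = 1.45e-10). Its neighbour on the same chromosome, LOC100265390, described as PIP1-2, went the other way with 30.6 to 64.7 FPKM in ZP and 2.39 to 11.4 FPKM in MH (2.74 ± 0.10). How reads shared by such close relatives were assigned is not given in the sources used here.

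Of the 8 vacuolar aquaporins 6 were called higher in ZP (background 61.6%), 1 was not called and 1, TIP3-2, was lower (background 27%). TIP3-2 (LOC100252897, chromosome 16: 109409 to 110840) belongs to the TIP3 group, which in Arabidopsis marks the protein storage vacuoles of maturing seeds. In ZP it was listed at 0 and 0.474 FPKM at day 35, 3.04 and 3.66 at day 45, 4.19 and 6.86 at day 55, and 16.4 and 38.1 FPKM at day 61. In MH it stood at 315 and 215 FPKM at day 35, 856 and 558 at day 45, 1092 and 741 at day 55, and 940 and 703 at day 61. All MH libraries lay above all ZP libraries. The average difference, -6.79 ± 0.18 (adjusted p = 4.05e-13), was the largest in either direction among the members. TIP3-2 rose in both varieties from day 35 to day 61, by 4.42 ± 0.37 in ZP (adjusted p = 1.95e-07) and by 1.64 ± 0.37 in MH (adjusted p = 0.00144).

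The storage protein markers moved with TIP3-2 from library to library in ZP, where they summed to 66.1 and 159 FPKM at day 35, 231 and 339 at day 45, 260 and 647 at day 55, and 1633 and 3879 at day 61. In each of these pairs the library with more storage RNA also held more TIP3-2, and the part of storage tissue in the TIP3-2 levels was not tested. A second gene described as TIP3-2, LOC100241797, was low and went the other way, reaching 2.8 FPKM in ZP and no more than 0.035 FPKM in MH, where 7 of 8 libraries were listed at 0.

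TIP2;1 (TIP2_3B1) fell in both varieties, with 159 and 191 FPKM at day 61 and 1267 and 1250 FPKM at day 35 in ZP, against 24.1 and 18.6 FPKM and 153 and 118 FPKM in MH. The change was -2.84 ± 0.25 in ZP and -2.61 ± 0.25 in MH, and the interaction was not called (adjusted p = 0.237), though it was with a replicate term in each variety (adjusted p = 0.0113). TIP1;1 (TIP1_3B1) had 9.78 to 22.2 FPKM in ZP and 0.0495 to 0.678 FPKM in MH (3.54 ± 0.09).

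TIP4-1 (LOC100252631, chromosome 4: 2906002 to 2907450) had the steepest fall of any member. It held 278 and 253 FPKM in ZP at day 35, 24.2 and 26 at day 45, 1.8 and 2.97 at day 55 and 1.37 and 0.555 at day 61, while MH libraries stayed between 0.755 and 8.08 FPKM throughout. The change from day 35 to day 61 was -7.12 ± 0.26 in ZP (adjusted p = 8.36e-11), and -1.74 ± 0.26 in MH (adjusted p = 5.19e-05). TIP1-1 (LOC100263698) had a like course in ZP, 6.87 and 7.08 FPKM at day 61 and 148 and 141 FPKM at day 35, against 1.31 and 1.18 FPKM and 5.54 and 3.86 FPKM in MH.

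TIP1;2 (TIP1_3B2, described as TIP1-1 and singled out after its values were seen) changed in opposite directions. In ZP it fell to 446 and 404 FPKM at day 61, against 1023 and 989 FPKM at day 35 (-1.24 ± 0.28, adjusted p = 0.00167), and in MH it rose to 314 and 217 FPKM at day 61, against 92.7 and 52 FPKM at day 35 (1.90 ± 0.28, adjusted p = 5.27e-05). A further TIP1-1 (LOC100250080) was not called on average (-0.17 ± 0.10), but was lower in ZP under median-ratio scaling (-0.51, adjusted p = 0.0021). It had 1.15 and 0.546 FPKM at day 61 and 3.91 and 3.54 FPKM at day 35 in ZP, and in MH it had 0.328 FPKM and a listed 0 at day 61 and 26.2 and 19.5 FPKM at day 35. Of the 2 NIP genes, NIP5-1 (LOC100265051), a boron channel in Arabidopsis, was higher in ZP (2.05 ± 0.07) and NIP1-1 (LOC100263543) was lower on average (-0.42 ± 0.10). NIP1-1 changed order between days, with 5.29 FPKM in both ZP libraries at day 45, against 2.42 and 2.09 FPKM in MH. At day 61 it had 2.34 and 1.59 FPKM in ZP, against 10.3 and 8.79 FPKM in MH.

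**Figure D2:**
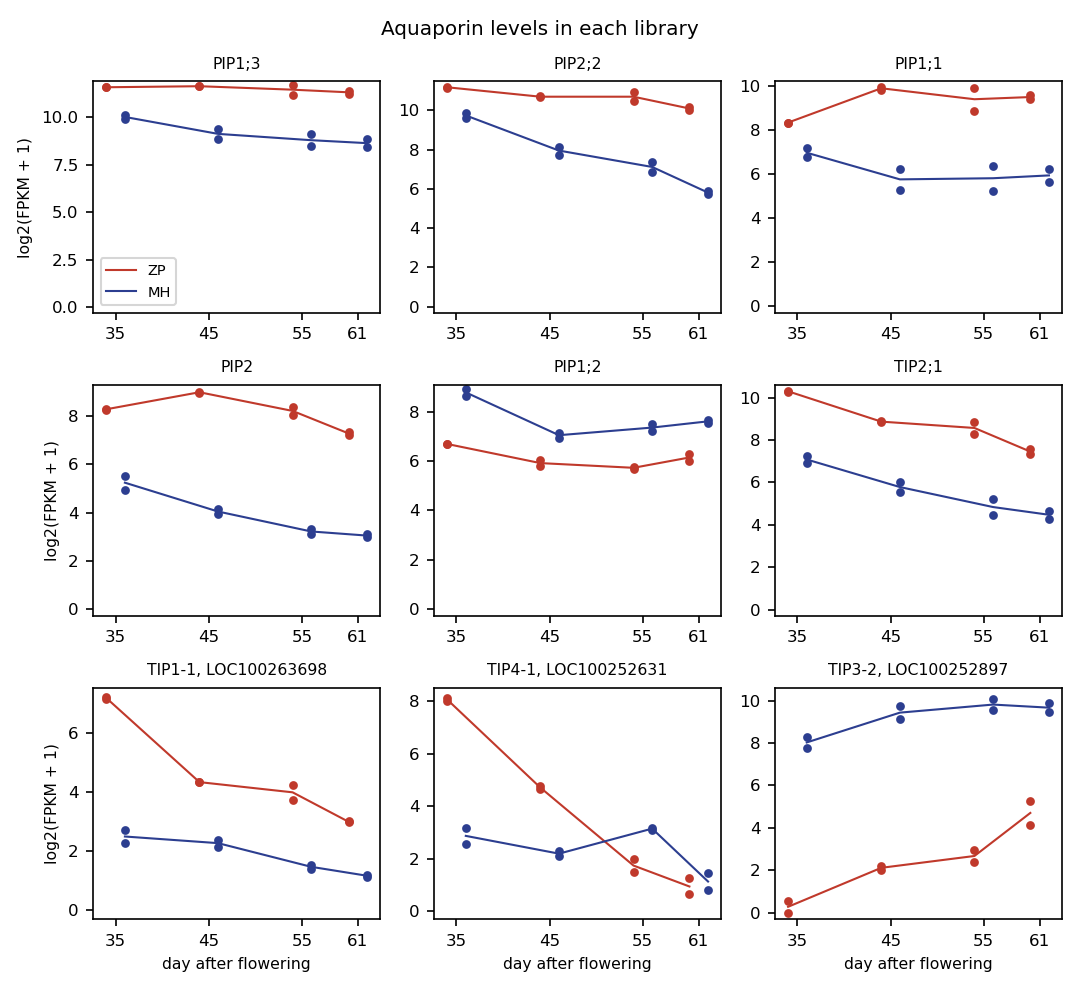
Level of 9 aquaporins on the log2(FPKM + 1) scale (vertical axes, each panel with its own range) by day after flowering (horizontal axes); points are libraries (2 per variety and day, ZP drawn just left of the day and MH just right) and lines join group means. PIP1;2 and TIP3-2 are the panels in which MH lies above ZP on every day.

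Of the 41 tested NPF genes, 30 were called higher in ZP averaged over the days (background 61.6%) and 8 lower (27%). The median difference was 1.01, and median-ratio scaling gave 23 NPF genes higher and 12 lower. Their 44 genes summed to 742 to 1270 FPKM in ZP libraries and 170 to 231 FPKM in MH libraries.

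LOC100250961, described as NPF3.1 (chromosome 1: 3035075 to 3038712, minus strand), held 231 to 540 FPKM of that in ZP. NPF3.1 of Arabidopsis carries gibberellin and nitrate, and it is expressed in root endodermis there. In ZP the gene held 348 and 339 FPKM at day 35, 400 and 407 at day 45, 495 and 540 at day 55 and 237 and 231 FPKM at day 61. In MH it held 10.1 and 8.18, 2.71 and 3.15, 1.46 and 1.21, and 10.7 and 10.4 FPKM on these days. ZP peaked at day 55, the day on which MH was lowest. The average difference of 5.98 ± 0.06 (adjusted p = 3.15e-16) was the largest in favour of ZP among the members, and it was called in each setting tried.

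From day 35 to day 61 the gene fell by 0.55 ± 0.11 in ZP (adjusted p = 0.000816) and differed by 0.20 ± 0.11 in MH (adjusted p = 0.147, not called). Under median-ratio scaling and quantile normalization the MH difference was a called rise, of 0.83 (adjusted p = 8.55e-05) and 0.72 (adjusted p = 0.000455). The course over the days differed between the varieties (interaction adjusted p = 5.02e-09).

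Several other NPF genes stood higher in ZP on some later day than at day 35. NPF6.3 (LOC100259122, chromosome 2: 5135497 to 5139704), the counterpart by name of the Arabidopsis nitrate transceptor NRT1.1, held 3.37 and 2.92 FPKM at day 35, 45.1 and 45.4 at day 45, 119 and 98 at day 55 and 51.6 and 46.7 at day 61 in ZP, and 0.151 to 0.758 FPKM in all 8 MH libraries. The ZP change was 3.60 ± 0.13 (adjusted p = 9.55e-11), the MH change was -0.09 ± 0.13 (adjusted p = 0.596), and the average difference was 4.54 ± 0.07.

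NPF4.6 (LOC100258696), in Arabidopsis an importer of nitrate and abscisic acid, had 513 and 518 FPKM at day 61 and 84.8 and 85.5 FPKM at day 35 in ZP, against 28.2 and 26.9 FPKM and 22.6 and 23.1 FPKM in MH. No ZP library overlapped an MH library, and the average difference was 3.25 ± 0.05 (adjusted p = 3.97e-15). A gene with the same description on chromosome 17, LOC100255336, did not reach 1 FPKM in any library and was not tested.

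NPF6.4 (LOC100255020) did not differ past the threshold between the varieties at day 35 (-0.22, adjusted p = 0.175), though it was lower in ZP that day under median-ratio scaling (-0.48, adjusted p = 0.00192). ZP libraries held 14.7 and 14.4 FPKM at day 35, 23.3 and 21.7 at day 45, 41.9 and 37.6 at day 55 and 62.4 and 58.1 at day 61, against 16.6 and 17.5, 5.61 and 7.26, 0.949 and 1.51, and 1.16 and 1.26 FPKM in MH. ZP lay below MH at day 35 and above it from day 45 on. The change was 1.98 ± 0.14 in ZP (adjusted p = 4.26e-08) and -3.03 ± 0.14 in MH (adjusted p = 7.66e-10), a difference of 5.01 ± 0.20. NPF6.2 (LOC100247542), named for the Arabidopsis petiole nitrate transporter, had 15.1 and 13.5 FPKM at day 35, 40.8 and 54.6 at day 45, 40.5 and 34.7 at day 55 and 12.1 in both libraries at day 61 in ZP, against 11.6 and 11.2, 2.1 and 2.25, 0.658 and 0.862, and 0.255 and 0.402 FPKM in MH. ZP was highest at day 45, and MH at day 35.

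A smaller set of NPF genes was low in ZP. NPF5.10 (LOC100853111, chromosome 18: 30379791 to 30392460) had 0.117 to 2.05 FPKM in ZP and 12.1 to 66.3 FPKM in MH, with an average difference of -4.15 ± 0.08 (adjusted p = 1.9e-14). NPF7.3 (LOC100263313), whose Arabidopsis counterpart loads nitrate into the xylem, had 0.241 to 0.66 FPKM in ZP and 4.98 to 16.9 FPKM in MH (-3.04 ± 0.07). A second NPF7.3 (LOC100252219) did not exceed 0.188 FPKM in any ZP library and reached 9.72 and 11 FPKM at day 61 in MH. NPF2.11 (LOC100244038), a glucosinolate carrier in Arabidopsis, was lower in ZP as well (-2.11 ± 0.08), whereas 3 other genes described as NPF2.11, clustered on chromosome 17, were higher. NPF8.3 (LOC100255930) illustrates the effect of scaling, with 39 to 53.9 FPKM in ZP and 24.8 to 38.7 FPKM in MH, an average difference of 0.53 ± 0.06 on the deposited scale and -0.18 under median-ratio scaling.

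The 3 high-affinity nitrate transporter genes were low in both varieties and called higher in ZP on average. NRT2.5 (LOC100261203), an importer induced by nitrogen shortage in Arabidopsis, had 9 to 13.7 FPKM in ZP and 1.3 to 3.75 FPKM in MH (1.92 ± 0.06, adjusted p = 1.31e-12). NRT3.1 (LOC100258771), the partner protein that NRT2 carriers need, peaked at 13 and 11.8 FPKM at day 55 in ZP, where MH had 1.21 and 1.27 FPKM. The second NRT2.5 gene (LOC100260250) had an average difference of 0.61 ± 0.07, which was 0.03 and not called under quantile normalization.

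Ammonium transporters were low in MH. The 7 genes summed to 18.6 to 46.8 FPKM in ZP libraries and 0.462 to 2.5 FPKM in MH libraries. Of 6 tested, 5 were called higher in ZP averaged over the days (background 61.6%) and 1 lower (LOC100249173, -0.36, background 27%). The same split of 5 and 1 was found under median-ratio scaling and quantile normalization. LOC100249173 reached 1 FPKM only in the MH libraries of day 35 (1.7 and 1.5 FPKM), and no other library exceeded 0.0648 FPKM. It passed the filter on low values through that group alone, so its call says nothing about the other days. AMT1 member 1 (LOC100258016, chromosome 5: 10350683 to 10352826) held 3.17 and 3.12 FPKM at day 35, 14.4 and 12.7 at day 45, 21.8 and 25.3 at day 55 and 15.3 and 13.3 at day 61 in ZP, and 0.0847 to 0.466 FPKM in MH. The average difference was 3.27 ± 0.06 (adjusted p = 2.47e-14). Its rise over the days in ZP, 1.88 ± 0.13 (adjusted p = 2.81e-08), was larger than the MH change of 0.24 ± 0.13 (adjusted p = 0.113, and a called rise of 0.44 at adjusted p = 0.00836 under median-ratio scaling) by 1.64 ± 0.18 (adjusted p = 4.19e-06).

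Neighbouring genes on chromosome 7 described as ammonium transporter 3 member 1 behaved differently over time. LOC100259492 had 12 and 12.2 FPKM at day 35 in ZP, 1.88 and 2.37 at day 45, 0.315 and 0.465 at day 55 and 0.186 and 0.0524 at day 61, while MH stayed at 0.0245 to 0.248 FPKM. LOC100252515 had 5.01 and 4.49 FPKM in ZP at day 35, peaked at 8.91 and 14.1 at day 55 and had 3.19 and 2.34 at day 61, with 0.0182 to 0.145 FPKM in MH. The first thus had its ZP maximum on the first day sampled and the second on the third.

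**Figure D3:**
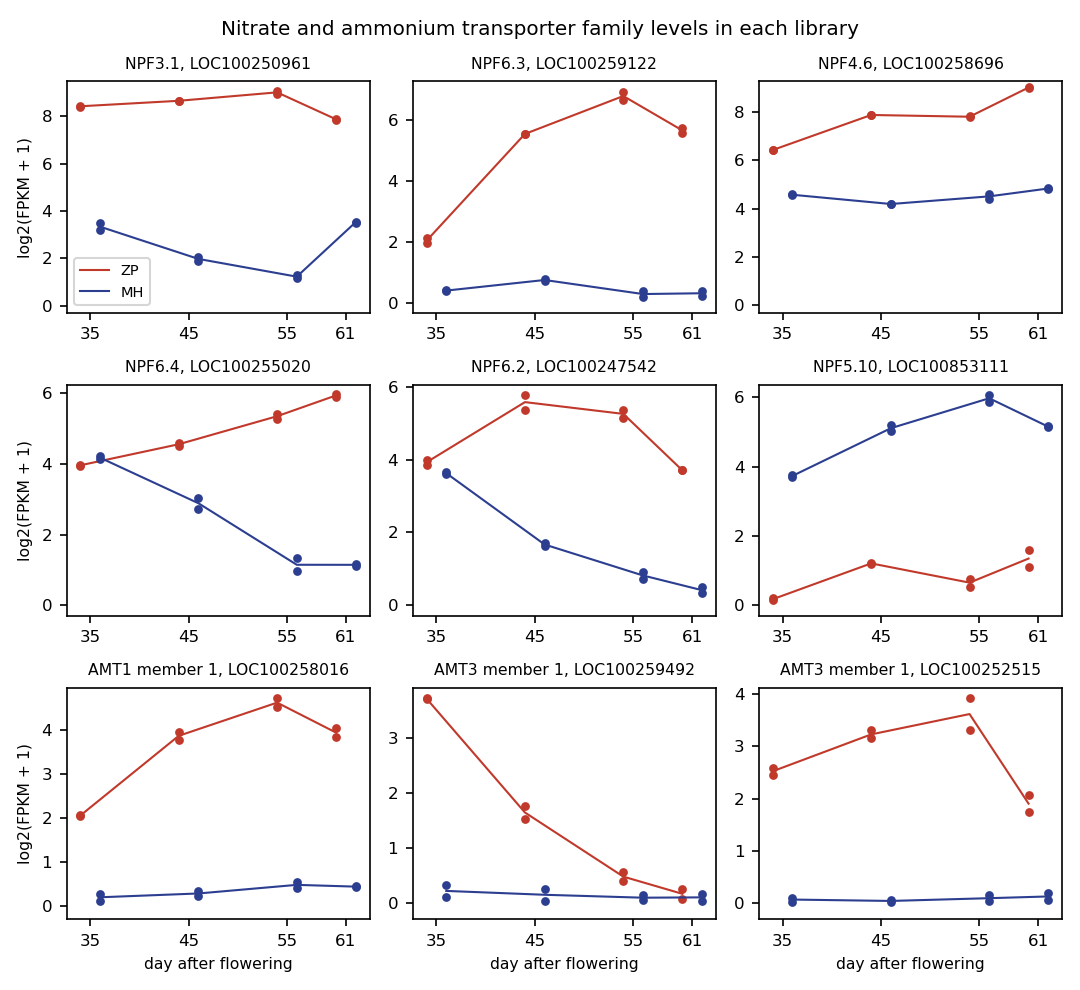
Level of 6 NPF genes and 3 ammonium transporters on the log2(FPKM + 1) scale (vertical axes, each panel with its own range) by day after flowering; points are libraries (2 per variety and day, ZP drawn just left of the day and MH just right) and lines join group means. NPF5.10 is the panel with MH above ZP on every day, and NPF6.4 lies close together in both varieties at day 35.

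Amino acid permeases were the family whose median difference was negative (-0.19, with -0.67 under median-ratio scaling). Of 14 genes 5 were called higher in ZP (background 61.6%) and 7 lower (27%), and median-ratio scaling gave 4 and 10. Their summed level was similar, 59.5 to 88.9 FPKM in ZP libraries and 56.3 to 92.7 FPKM in MH libraries. AAP6 (LOC100259319) had 0.188 to 1.02 FPKM in ZP and 5.33 to 19 FPKM in MH (-3.06 ± 0.09, adjusted p = 5.21e-13). AAP8 (LOC100260163), a phloem loader of amino acids to seeds in Arabidopsis, had 0.13 to 1.01 FPKM in ZP and 2.02 to 19.4 FPKM in MH (-2.12 ± 0.14).

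AAP3 (LOC100262657) climbed in ZP, with 4.7 and 3.37 FPKM at day 35, 11.5 and 13.6 at day 45, 37.5 and 28 at day 55 and 43.4 and 35.6 at day 61, against 4.41 and 4.66, 6.46 and 9.28, 6.32 and 8.76, and 7.58 and 8.93 FPKM in MH. The rise was 3.01 ± 0.21 in ZP (adjusted p = 2.98e-08) and 0.74 ± 0.21 in MH (adjusted p = 0.00643). A second AAP3 (LOC100242414) did the reverse, with 7.98 and 7.74 FPKM at day 61 and 29.6 and 28.7 at day 35 in ZP, and 14.6 to 22.5 FPKM in all MH libraries. Its average difference was not called on the deposited scale (-0.11 ± 0.06), but was called lower in ZP under median-ratio scaling (-0.80, adjusted p = 1.93e-08), and the interaction was called (adjusted p = 7.79e-07).

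AAP7 (LOC100254980) and AAP6 (LOC100257555) also rose in ZP, by 2.22 ± 0.12 and 1.95 ± 0.12, and in MH by less, 0.58 ± 0.12 and 0.78 ± 0.12. The average difference of LOC100257555 was 0.45 ± 0.06 on the deposited scale and -0.17 under median-ratio scaling, and this gene overlaps another gene. AAP8 (LOC100250828) fell in both varieties and was not called on average (0.05 ± 0.06, with -0.54 and a call under median-ratio scaling). In the change from day 35 to day 61, 11 of the 14 permeases were called more upward in ZP than in MH (background 48.5%). Another 2 were called more downward (background 20.7%). The counts were 9 and 2 under median-ratio scaling and 7 and 3 under quantile normalization, where shares over all genes are not given.

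Among the 18 other amino acid transporters, 14 were called higher in ZP (background 61.6%) and 3 lower (27%), with a median difference of 1.27. The most abundant was LOC100258371, described as a sodium-coupled neutral amino acid transporter 6, with 214 to 428 FPKM in ZP and 58.2 to 189 FPKM in MH (1.72 ± 0.08, adjusted p = 5.56e-11). It rose from day 35 to day 61 in both varieties, by 0.88 ± 0.15 in ZP and by 1.45 ± 0.15 in MH. LOC100255327, of the same type, had 30.4 to 56.1 FPKM in ZP and 3.24 to 6 FPKM in MH (2.85 ± 0.07), and it overlaps another gene.

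LOC100240998, described as a probable vacuolar amino acid transporter YPQ1 after a yeast carrier of basic amino acids, had the smallest p of the interaction among members (adjusted p = 2.78e-11). It rose in ZP, with 8.9 and 8.18 FPKM at day 35, 94.3 and 90.1 at day 45, 91.3 and 86.1 at day 55 and 210 and 209 at day 61. In MH it declined, with 32.2 and 32.5, 12 and 11.2, 5.01 and 5.33, and 8.27 and 9.76 FPKM on these days. The varieties changed order between days 35 and 45. The change was 4.46 ± 0.10 in ZP (adjusted p = 2.39e-12) and -1.74 ± 0.10 in MH (adjusted p = 8.55e-09).

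LOC100255991, a vacuolar amino acid transporter 1, was the mirror case, since it rose most in MH. ZP libraries had 1 and 0.858 FPKM at day 35, 1.8 and 1.64 at day 45, 12 and 9.93 at day 55 and 5.53 and 5.01 at day 61, while MH had 1.78 in both at day 35, then 12 and 14, 33.4 and 42.3, and 105 and 116 FPKM. The change was 1.70 ± 0.14 in ZP and 5.32 ± 0.14 in MH (adjusted p = 7.86e-12). Among other genes of the same description, LOC100258085 (3.09 ± 0.08) and LOC100249618 (2.57 ± 0.07) were higher in ZP. A low copy, LOC100253027, had 0.696 to 1.69 FPKM in ZP and 0.0584 to 0.812 FPKM in MH. From day 35 to day 61 that copy was called lower in ZP and higher in MH on the deposited scale. The cationic carriers CAT6 (LOC100242904, -2.65 ± 0.11) and 1 of the 2 CAT1 genes (LOC100258291, -1.63 ± 0.06) were lower in ZP, while the CAT1 gene beside it on chromosome 10 (LOC100263534, 2.22 ± 0.08) was higher. GABA transporter 1 (LOC100246547) was not called on average (0.07 ± 0.07, with -0.52 and a call under median-ratio scaling). It peaked at 10.1 and 7.47 FPKM at day 55 in ZP and reached 9.91 and 10.8 FPKM at day 61 in MH. A second gene of that description, LOC100266050, rose in ZP, from 1.3 and 1.03 FPKM at day 35 to 7.8 and 8.59 at day 61. In MH LOC100266050 fell from 1.92 and 2.41 FPKM to 1.11 and 0.622 FPKM. Both changes were called on the deposited and median-ratio scales, but not both under quantile normalization.

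Of 7 tested oligopeptide transporters, 5 were called higher in ZP (background 61.6%) and 1 lower (27%). OPT3 (LOC100242155), which in Arabidopsis moves iron in the phloem and is needed for seed iron, was steady in ZP at 176 to 215 FPKM, against 17.2 to 40.6 FPKM in MH (2.88 ± 0.05, adjusted p = 1.62e-14). OPT4 (LOC100250922) had 9.14 to 28 FPKM in ZP and 0.388 to 1.2 FPKM in MH (3.25 ± 0.06), and it overlaps another gene. OPT2 (LOC100259035) was lower in ZP, with 0.383 to 2.08 FPKM, against 3.79 to 33.5 FPKM in MH (-2.52 ± 0.07, adjusted p = 8.27e-13). Of 2 OPT7 genes, LOC100262585 was higher in ZP (2.95 ± 0.06, overlapping another gene), and LOC100251260 was not called (-0.13 ± 0.07, with -0.78 and a call under median-ratio scaling).

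**Figure D4:**
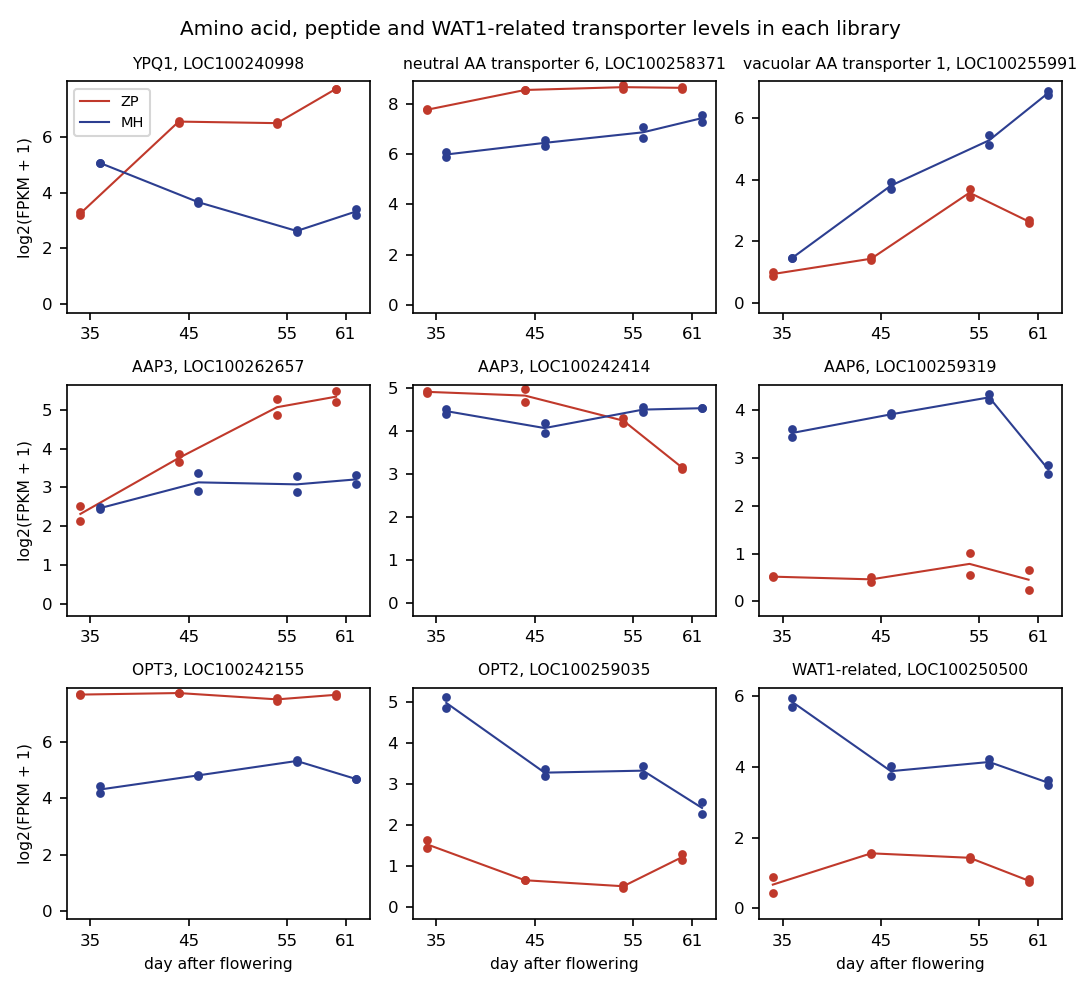
Level of 3 vacuolar or neutral amino acid transporters, 3 amino acid permeases (AAP), 2 oligopeptide transporters (OPT) and 1 WAT1-related gene on the log2(FPKM + 1) scale (vertical axes, each panel with its own range) by day after flowering; points are libraries (2 per variety and day, ZP drawn just left of the day and MH just right) and lines join group means. LOC100240998 climbs in ZP and declines in MH, and LOC100255991 climbs most in MH.

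WAT1-related genes split in both directions around a median near that of all genes. Of 24 tested, 17 were called higher in ZP (background 61.6%) and 6 lower (27%), with a median difference of 0.59. Under median-ratio scaling 13 were higher and 8 lower. The highest level belonged to LOC100259498, with 67 to 96.9 FPKM in ZP and 61.5 to 118 FPKM in MH, which overlapped. Its small average difference (-0.14 ± 0.05, adjusted p = 0.0277) passed the threshold, and it was not called in 8 of the 16 fits that left out 1 library. LOC100253486 had 38.9 to 53.3 FPKM in ZP and 0.629 to 3.47 FPKM in MH (4.32 ± 0.07, adjusted p = 5.04e-15). LOC100250500 had 0.363 to 1.96 FPKM in ZP and 10.2 to 61.1 FPKM in MH (-3.24 ± 0.08), and LOC100247871 had 8.94 to 16.6 FPKM in ZP and 30.8 to 102 FPKM in MH (-2.01 ± 0.07).

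LOC100262193 fell in ZP to 0.204 and 0.0862 FPKM at day 61, against 34.6 and 34.3 FPKM at day 35 (-4.95 ± 0.14, adjusted p = 9.25e-12), while MH did not exceed 1.69 FPKM. LOC100241372 rose in both varieties, with 7.05 and 6.57 FPKM at day 61 and 0.301 and 0.224 at day 35 in ZP, and 14.6 and 19 FPKM and 0.752 and 0.345 FPKM in MH (average difference -0.93 ± 0.13).

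Members of 1 family often sit side by side on a chromosome. Taking genes of a family within 100 kb of each other, 60 of the 138 genes fell into 21 clusters, and 17 clusters held at least 2 tested genes. The called members were all higher in ZP in 10 of these clusters, all lower in 3, and of both directions in 4 (10, 3 and 4 under median-ratio scaling, 8, 3 and 6 under quantile normalization). Most of the 17 held only 2 tested genes, and 61.6% of all tested genes were called higher in ZP. Whether neighbours agreed more often than other genes was not tested. In the table's coordinates, which matched assembly ASM3070453v1 for all 136 members found in RefSeq, a WAT1-related cluster on chromosome 1 from 9583824 to 9651522 had all 6 members higher in ZP, by 0.61 to 4.32. It includes LOC100253486, LOC100262193, LOC100267362 (2.51 ± 0.06), LOC100248371 (2.23 ± 0.05) and a gene model of the authors' own (4.09 ± 0.09).

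An amino acid permease cluster on chromosome 4 from 172208 to 200507 had 5 of 6 members lower in ZP and 1 not called. Another WAT1-related cluster, on chromosome 4 from 23276466 to 23321130, had all 3 members lower, with differences of -3.24 to -1.38. The NPF2.11 cluster on chromosome 17 from 6447770 to 6543803 had 3 of 3 tested members higher, by 2.10 to 3.26 (LOC100263850, the strongest, had 3.26 to 20.9 FPKM in ZP and 0.0215 to 0.543 FPKM in MH). The ammonium transporter cluster on chromosome 7 from 30259831 to 30367883 had 3 of 3 higher. The largest cluster, 8 genes described as NPF5.10 on chromosome 18 from 30296512 to 30544827, had 4 higher and 4 lower. One of the 4 higher, LOC109121667, is annotated as a long non-coding RNA in RefSeq and overlaps another gene. Copies in a cluster can share reads, and 14 members overlap another gene, so the separate levels of such copies are uncertain.

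**Figure D5:**
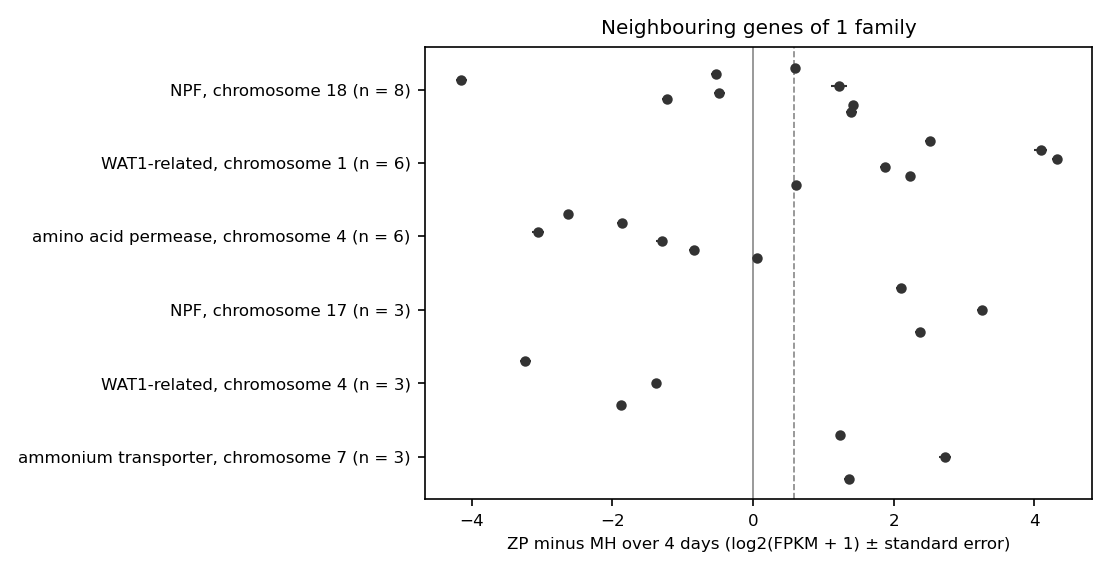
Difference between varieties, ZP minus MH averaged over the 4 days on the log2(FPKM + 1) scale (points, with bars of 1 standard error that are often smaller than the point), for the tested genes of the 6 family clusters with at least 3 members, in chromosome order from top to bottom within a cluster; the solid line is 0 and the dashed line the median of all tested genes. The cluster on chromosome 18 holds both signs, and the other 5 lie on 1 side except for 1 permease at 0.05, which is at -0.54 under median-ratio scaling.

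Over time, the members moved in both varieties. Any change over the 4 days was called for 109 of the 131 tested members in ZP (background 73.6%) and 108 in MH (background 72%), and the course differed between varieties for 117 (background 78.9%). At day 61 against day 35, 48 members were higher in ZP (background 31.9%) and 46 lower (35%), with a median of 0.12. In MH 37 were higher (background 15.8%) and 59 lower (52.1%), with a median of -0.12, where the median of all genes was -0.42. As shares of the 131, the rises were above background in both varieties. The falls were near background in ZP and below it in MH. Median-ratio scaling moved the MH split to 52 higher and 43 lower, with a median of 0.03 for the members and -0.05 for all genes, so the surplus of falls in MH depends on the scale.

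The direct contrast of the changes from day 35 to day 61 was added after the data had been seen. It was called in favour of ZP for 61 of the 131 tested members, a share below that of all tested genes (48.5%). It was called in favour of MH for 40, a share above that of all tested genes (20.7%). On the median-ratio scale these counts were 49 and 48. By direction within a variety, 28 members fell in both (background 23.5%) and 21 rose in both (background 7.83%). Another 11 rose in ZP and fell in MH (background 10.7%), and 6 fell in ZP and rose in MH (background 2.98%). As shares of the 131 tested members, those that fell in both, or rose in ZP and fell in MH, were below background. Those that rose in both, or fell in ZP and rose in MH, were above it. Under median-ratio scaling 17 fell in both, 30 rose in both, 8 rose in ZP and fell in MH, and 11 fell in ZP and rose in MH. The shares of all genes for these day changes on the median-ratio scale are not given here. LOC100240998, NPF6.4 (LOC100255020) and the WAT1-related genes LOC100248371 and LOC100264674 were among those that rose in ZP and fell in MH on both scales. TIP1;2 and NPF2.11 (LOC100244038) were among those that fell in ZP and rose in MH on both.

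Genes around the transporters gave the following counts, to be read against 61.6% of all tested genes called higher in ZP and 27% lower. Their median-ratio counts are to be read against 5860 genes called higher and 5370 lower on that scale. Of 21 nitrogen assimilation genes tested, 11 were called higher in ZP and 8 lower averaged over the days, with a median of 0.17, below that of all genes, and median-ratio scaling gave 9 and 11. Asparagine synthetase (LOC100241610) had 58.8 to 658 FPKM in ZP and 10.6 to 85.9 FPKM in MH (3.19 ± 0.07), and glutamate synthase 1 (LOC100246868) was also higher in ZP (1.34 ± 0.06). Alanine aminotransferase 2 (LOC100241156) was lower, with 53.5 to 92.8 FPKM in ZP and 216 to 731 FPKM in MH (-2.21 ± 0.06). Of 13 other amino acid carriers 10 were higher and 2 lower (9 and 3 under median-ratio scaling). These include a lysine histidine transporter 1 (LOC100262761) that peaked at 61.7 and 53.6 FPKM at day 55 in ZP, where MH had 0.844 and 1.16 FPKM, and another (LOC100247632) with 1.78 and 2.3 FPKM at day 61 and 27.6 and 27 at day 35 in ZP, and 0.124 and 0.195 FPKM and 0.971 and 0.64 FPKM in MH. LOC100248706 was higher as well (2.66 ± 0.07).

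Of 17 tested proton pumps, which energise most of these carriers, 12 were called higher in ZP and 5 lower, with a median difference of 0.76 against 0.58 over all tested genes, where 61.6% were called higher and 27% lower. Under median-ratio scaling 9 were higher and 8 lower. The vacuolar pyrophosphatase LOC100266984 had 8 to 12.6 FPKM in ZP and at most 0.199 FPKM in MH (3.39 ± 0.08). VPP2 (1.85 ± 0.07) and V-type ATPase subunit C (LOC100266332, 1.49 ± 0.06) were higher too. Of 8 nitrate regulators 5 were higher and 2 lower (4 and 4 under median-ratio scaling), and 2 genes described as LOB domain protein 38, a repressor of nitrate response genes in Arabidopsis, went opposite ways (LOC100261250, 2.84 ± 0.15, and LOC100255841, -2.83 ± 0.16). NLP2 (LOC100267426) was higher in ZP (1.36 ± 0.09).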

How the data were processed

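The 16 ovule RNA libraries were read on a NovaSeq X Plus machine (Illumina), per the labels, which also give variety, day and replicate number. The authors deposited FPKM per gene and library with gene positions and descriptions, per the file headers. The aligner, counting tool, genome build and use of strand are not given in the sources used here. All sample columns were used (0 left out).

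Members were matched by description in NR, or in Swissprot where NR gave none (18 genes), and 136 were found in RefSeq by identifier. The members and lists were chosen with earlier results of these data known. The 12637 genes reaching 1 FPKM in 2 or more libraries were fitted with limma 3.58.1 in R 4.3.3 on log2(FPKM + 1), with a mean-dependent prior variance, 8 group means and 8 residual degrees of freedom. Tests were two-sided, F-tests over the days and the interaction included, with Benjamini-Hochberg adjustment within a comparison. P-values measure the spread between the 2 libraries of a group, which may be technical.

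Members were named by rule: LOC100250961, the 3 most abundant genes and the 3 largest called rises and falls of each family, the 5 strongest interactions, the 3 largest changes over the days per variety, and up to 3 genes per neighbouring list, with a group mean of at least 10 FPKM for changes. Some were also named after their values were seen: cluster neighbours, same-name copies, the second TIP3-2 and TIP1;2, other aquaporins and the lower ammonium transporter. No promoter, protein or genome sequence was used here.

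FPKM gives no counts, so depth was estimated from the steps of low values (768 genes, within 0.06 of a whole step), and 128 of 630 genes shared the commonest value of step times gene span. On simulated data for the difference averaged over the days, over 12637 genes, true log2 differences of 0.5, 1 and 2 were called in 92%, 98% and 100% of the changed genes, and 10 unchanged genes were called. The changed genes were few and drawn from those at higher levels, with independent noise and no shift in library composition. These rates therefore do not cover members at low levels, paired libraries or the choice of scale. Alternatives were a pseudocount of 0.1, no filter, quantile normalization, median-ratio scaling, a total without storage genes, a replicate block and leaving out each library. Deviations of same-numbered libraries correlated at 0.408 to 0.728 among MH days, at 0.0765 to 0.27 among ZP days and at -0.573 to 0.0816 between varieties on the same day. The numbers may therefore pair libraries within MH, so a fit with a replicate term in each variety was added after the data had been seen. If they do, libraries of different days are not independent, and p-values for differences between the varieties averaged over days may be too small. The added term takes variation shared by same-numbered libraries out of the error, so it does not mend this.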

Additional observations from a re-analysis of the deposited data

Results flagged for a closer look

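The 15 transporters named for the strongest interactions or the largest changes over the days are given here, since their change from day 35 to day 61 was called different in the 2 varieties by a direct contrast (ZP change minus MH change on the log2(FPKM + 1) scale, limma, Benjamini-Hochberg adjusted over all tested genes). The contrast was added after the data had been seen, and it was called for 101 of the 131 tested members in all. These 15 were chosen for their course over the days in the same data. Over all tested genes 48.5% were called in favour of ZP and 20.7% in favour of MH. The change was more upward in ZP for YPQ1 (LOC100240998) by 6.20 and for NPF6.4 (LOC100255020) by 5.01. It was more upward in ZP for NPF6.3 (LOC100259122) by 3.68, for NPF6.2 (LOC100247542) by 3.01, for TIP1-1 (LOC100250080) by 2.98, for PIP2;2 by 2.85 and for TIP3-2 (LOC100252897) by 2.79. More upward here need not mean a rise, since LOC100250080 and PIP2;2 fell in both varieties, and further in MH. NPF6.2 had 15.1 and 13.5 FPKM at day 35 and 12.1 in both libraries at day 61 in ZP. TIP3-2 rose in both varieties, in ZP from a listed 0 and 0.474 FPKM. It was more downward in ZP for TIP4-1 (LOC100252631) with -5.38, the WAT1-related LOC100262193 with -3.91, the vacuolar amino acid transporter LOC100255991 with -3.63 and the ammonium transporter LOC100259492 with -3.43. The same held for TIP1-1 (LOC100263698) with -2.86, GABA transporter 1 (LOC100246547) with -1.38, the WAT1-related LOC100241372 with -0.90 and NPF3.1 (LOC100250961) with -0.75. Of these, LOC100255991, LOC100246547 and LOC100241372 rose in both varieties, and further in MH. With 2 libraries in each group, no test for a single outlying library was made.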

How the results depend on the processing

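Over 23 alternatives, 16 of which left out 1 library, 1552 of 1587 recomputed average differences of named genes kept their direction and side of the threshold, 10 lost a call, 14 gained one and 11 changed sign. Changes over the days of single genes were compared under the 3 rescalings and the replicate blocks, and where a printed call changed the report gives it beside the value. Of 437 counts, 434 stayed within 1.5 times. Quantile normalization gave 47 members lower in ZP averaged over the days (29 as deposited), and at day 61 against day 35 in MH 58 higher (37) and 37 lower (59). The share of the members' calls that were higher in ZP was 76% as deposited, 64.5% under median-ratio scaling and 61.8% under quantile normalization. Over all tested genes the same shares were 69.5%, 52.2% and 51.8%. Under median-ratio scaling 5 members, and under quantile normalization 8, were called in the opposite direction. Average differences changed sign for LOC100255930 (-0.18 under median-ratio scaling), LOC100257555 (-0.20 quantile, -0.17 median-ratio), LOC100246547 (-0.55 quantile, -0.52 median-ratio, -0.13 without storage genes) and LOC100250828 (-0.62 quantile, -0.54 median-ratio, -0.17 without storage genes, -0.00 with a pseudocount of 0.1). LOC100250080 had 0.30 with a pseudocount of 0.1. The cause was not tested. Leaving out 1 library gave 91 to 93 members higher and 25 to 29 lower. A replicate block common to both varieties gave 92 higher and 29 lower and changed no call of that comparison. A replicate block within each variety gave 93 and 31, lost 0 of the members' calls in the 11 comparisons and added 36. Among these were the average of LOC100251260 (adjusted p = 0.0447) and LOC100250080 (adjusted p = 0.0346). This block takes variation shared by same-numbered libraries out of the error. It therefore cannot show whether calls between the varieties would hold if the numbers mark pairs, and the calls it added between varieties are not to be read as new results. With 2 libraries a group and FPKM alone, levels near 0.05 FPKM rest on about 1 fragment in 1 kb.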
